A study of Mus musculus with 12 samples.

Results

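Embryoid bodies plated for 15 days were compared with undifferentiated mouse embryonic stem (ES) cells on 3 of the 12 arrays of a differentiation time course. The 3 arrays are those whose titles name day 15, and each held ES RNA in 1 channel and day 15 RNA in the other. The ES cells were of the R1 line, a single mouse line. They were kept in serum-containing medium (KODMEM with FBS) on a gelatin surface, and leukemia inhibitory factor (ESGRO), a cytokine that holds mouse ES cells undifferentiated, was present. Embryoid bodies (EB), clumps of ES cells that differentiate without an inducer of a particular fate, were taken apart and cultured on plastic in DMEM with serum for 15 days. Companion arrays held EB plated for 4, 8 and 21 days, 3 arrays a day, and no group received a drug or carried an altered allele. Whether the 3 arrays of a day stand for separate cultures is not stated, so the spread between them may be technical, and that spread is all the p-values rest on.

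An embryoid body reproduces parts of early development in a dish. Its outer layer forms visceral endoderm, the tissue of the yolk sac that absorbs nutrients and secretes serum proteins before the liver exists, while inner cells can form mesenchyme, heart muscle, blood and vessels. The ES cell state itself depends on a small circuit of transcription factors around Pou5f1, Sox2 and Nanog, and on rapid proliferation.

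The value for each gene is the deposited normalized log ratio, read as base 2, with probes of a gene averaged. Positive ratios are taken to mean more RNA in EB, as the protocols imply by giving the red dye to EB RNA. This direction is likely and not settled, because titles and dye fields read the other way, and ES cell and yolk sac genes helped to choose it, so their signs cannot count for it. If it is wrong, every "rose" and "fell" is exchanged while all counts and p-values stay. Dyes were not swapped, so any dye bias of a gene remains part of its ratio. ES RNA was always the other channel, so it is treated as 1 control that the 4 days share. Its variation between arrays is part of the ratios and cannot be told apart from that of EB. How many ES cultures it came from is not known here. In bulk RNA, fewer cells of a type and less RNA per cell cannot be told apart.

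Of 10689 features tested (9212 genes and 1477 features without a single gene name), 1129 (10.6%) passed limma's test of the day 15 mean against 0 at an adjusted p of 0.05, and these are the ones said to have risen, fallen or been called. There were 605 higher features (5.66%) and 524 lower ones (4.9%), among them 548 higher and 457 lower genes. The 5.66% and 4.9% are the shares to hold beside the count of each gene list below. A size of at least 1 was reached by 88 higher (0.823%) and 33 lower features (0.309%). The median over all features was 0.007, and 2835 features (26.5%) had an unadjusted p under 0.05.

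Array 3 of day 15 stood apart from arrays 1 and 2. Across all features, arrays 1 and 2 correlated at 0.82, array 1 with array 3 at 0.39 and array 2 with array 3 at 0.42 (Pearson, as a description over 10689 features that share an array and a control). Among 96 unnamed features at regular positions of the array, the median ratio was -0.21 on array 1, -0.28 on array 2 and -1.36 on array 3. On 4 arrays of other days this median likewise lay at -1.04 or below, and on the other 5 at or above -0.31. The labels record no batch for this split into a first set of 7 arrays and a second set. With array set as a term, 1281 features were called at day 15 (618 higher, 663 lower), and from the first set alone 1742. The count of calls was 307 without array 1 (126 higher, 181 lower) and 235 without array 2 (111 higher, 124 lower). It was 1554 (14.5%) without array 3 (933 higher, 621 lower). Counts of the lists without an array, given below, are to be read beside these counts over 10689 features. A list with few or 0 calls there may only mirror them. Whichever of the 3 arrays was left out, 217 of the 1129 stayed called, 102 higher and 115 lower. These are described below as stable to leaving out an array. Their spread still came from all 4 days, so stable does not mean called from day 15 alone. In limma's fit of those 3 arrays alone, the stable genes Actc1 (adjusted p = 0.0823) and Col5a1 (adjusted p = 0.0801) were not called.

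**Figure D1:**
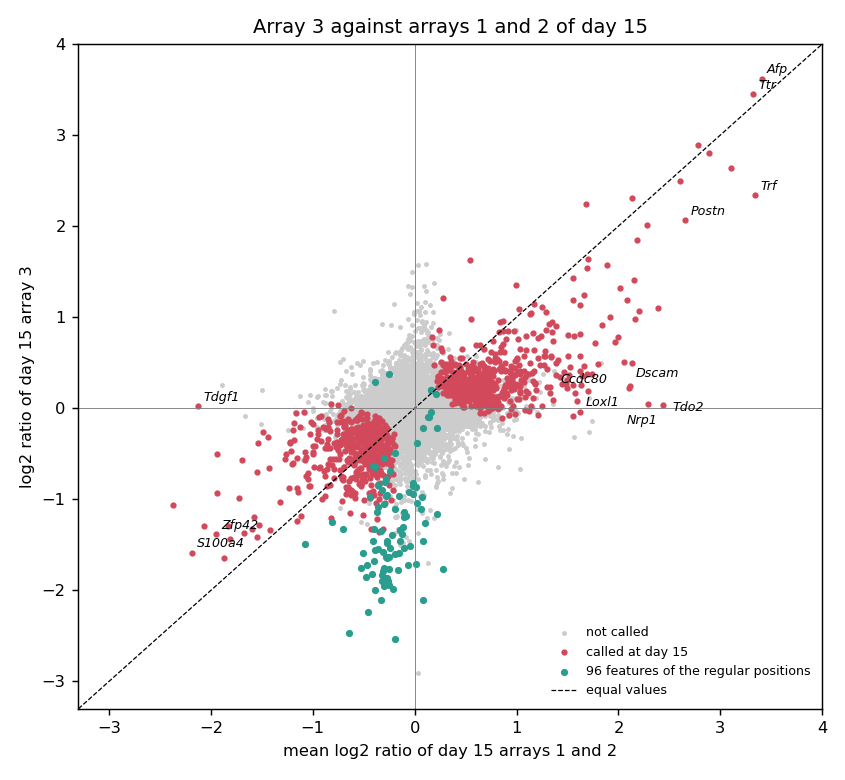
Each point is a tested feature, with the mean log2 ratio of day 15 arrays 1 and 2 on the horizontal axis and that of array 3 on the vertical axis. Red points passed the test, grey ones did not, and the green points are the 96 unnamed features at regular positions, whose median is -1.36 on array 3. Afp and Ttr lie near the dashed line of equal values, while Tdo2, Nrp1 and Tdgf1 lie near 0 on array 3 only.

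The disagreement was plain for single genes. Tdo2, which degrades tryptophan in liver, read 2.39, 2.48 and 0.03 on arrays 1 to 3. Nrp1, a co-receptor for semaphorins and vascular growth factors, read 2.43, 2.15 and 0.05. Tdgf1, the Nodal co-receptor Cripto of ES cells, read -2.19, -2.07 and 0.02. In each of these, 2 arrays held a large ratio and the other one none, yet all passed (adjusted p = 0.0152, 0.00994 and 0.0216). Ccdc80 (2.25, 1.96 and 0.22), the adhesion molecule Dscam (2.51, 1.71 and 0.24) and the collagen crosslinking enzyme Loxl1 (2.23, 1.02 and -0.04) behaved the same way. In all, 62 called features lay more than 1 away on array 3 from the mean of the other arrays, and 18 had the opposite sign there. The other 1111 had 1 sign on all 3 arrays, as did 5095 (47.7%) of all features.

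The largest ratios at day 15 belonged to secreted proteins of visceral endoderm and fetal liver. Afp, the fetal counterpart of albumin, read 3.35, 3.46 and 3.62 on the 3 arrays (mean 3.48 ± 0.14, SD, n = 3, 95% interval 2.53 to 4.42, adjusted p = 0.000582). Ttr, the carrier of thyroid hormone and retinol-binding protein, read 3.33, 3.32 and 3.45 (3.37 ± 0.07, 95% interval 2.04 to 4.69, adjusted p = 0.00486). Trf, the iron carrier transferrin, read 3.45, 3.23 and 2.34 (3.01 ± 0.59, adjusted p = 0.000801). All 3 arrays were far above 0 for these genes, and the intervals, which use a spread pooled over all 4 days, are wide. Of 20 measured serum carriers, 8 rose and 1 fell (5.66% and 4.9% of all features), with a median of 0.27 against 0.007 over all features. Selenop, the plasma selenium transporter, rose at 1.98, 2.34 and 0.98. The fibrinogen chain gene Fga (1.85, 1.55 and 0.38) and the binding protein Igfbp1 (1.81, 1.47 and 0.26) rose with a much smaller value on array 3. The adult liver carrier Alb stood at -0.02 ± 0.12, its pair of probes at -0.23 and 0.19. Tfrc, the receptor that takes up transferrin, fell (-0.49, -0.56 and -0.47, adjusted p = 0.00881). Without array 1, 4 of these carriers rose and 0 fell, without array 2, 3 and 0, and without array 3, 9 and 2. Afp, Trf and Ttr were the members stable to leaving out an array.

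The promoters of 2 of these genes are shown because they hold the same letters, GTTAAT, the half-site that the HNF1 factors, regulators of liver and yolk sac genes, are known to bind. These letters may overlap those of the TATA and octamer motifs described later by a few bases. The letters were searched on both strands from 250 bases before to 50 after each gene's start in RefSeq's promoters of GRCm38.p6. They were held by 7.1% of 32851 promoters and by 6.33% of the promoters of measured genes. Among the 85 genes called and higher by at least 1, 63 had a promoter entry and 12 held the letters (19.05%). They included Afp, Apoc2, Apoe, F2, Fga, Igfbp1 and Serpina1b, whose products are secreted into plasma, and also Mest, Postn and Sparc. Among 19 promoters of genes lower by at least 1, 0 held them. The 250 bases before the start follow, 5′ to 3′ on the gene's strand, with the match in capitals. For Afp (chr5:90490464-90490713, plus strand) the match begins 105 bases before the start, and for Igfbp1 (chr11:7197537-7197786, plus strand) it lies in the reverse complement, 56 bases before. A match is only a description of the letters.
Afp: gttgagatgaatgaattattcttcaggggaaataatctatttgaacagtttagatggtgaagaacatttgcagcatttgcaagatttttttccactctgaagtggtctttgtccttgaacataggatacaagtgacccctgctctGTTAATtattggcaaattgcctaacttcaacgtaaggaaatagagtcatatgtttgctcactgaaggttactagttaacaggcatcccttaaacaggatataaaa
Igfbp1: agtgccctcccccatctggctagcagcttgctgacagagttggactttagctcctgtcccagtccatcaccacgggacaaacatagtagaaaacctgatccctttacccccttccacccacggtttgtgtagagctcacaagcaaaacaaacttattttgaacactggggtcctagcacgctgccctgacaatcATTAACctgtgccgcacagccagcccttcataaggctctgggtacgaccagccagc

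The TATA letters TATAAA, searched in the same windows and on both strands, were held by 18 of those 63 promoters (28.6%), by 2 of 19 promoters of genes lower by at least 1 (10.5%), and by 13.3% of the promoters of all measured genes. The 18 included Afp, Apoa2, Apob, Apoe, Col3a1, Hba-x, Krt8, Postn, S100g and Selenop. These shares are given without a test.

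**Figure D2:**
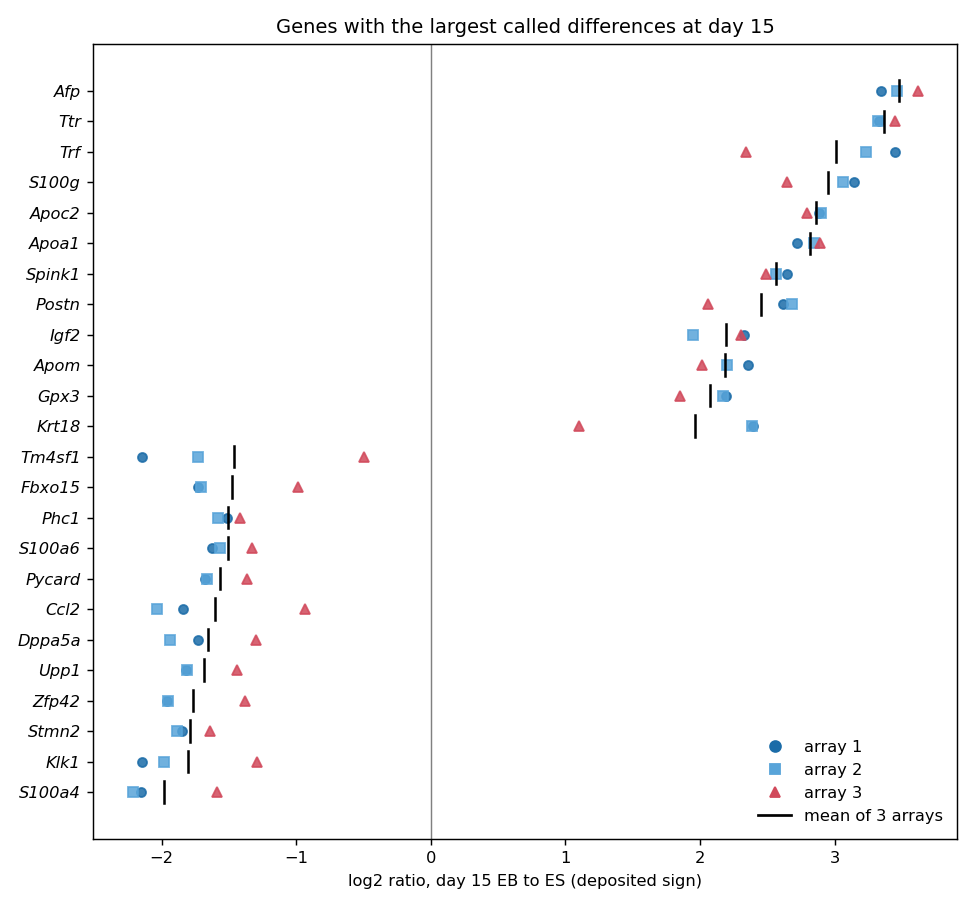
The log2 ratio of day 15 EB to ES on each of the 3 arrays (symbols) and their mean (black line) for the 12 highest and 12 lowest called genes with 1 sign on all arrays. Afp and Ttr exceed 3.3 on every array, and for Krt18 and Tm4sf1 array 3 lies well inside the other values.

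Of 27 measured genes for apolipoproteins and lipid transport, 12 rose and 1 fell, with a median of 0.38. Apoc2, the activator of lipoprotein lipase, read 2.88, 2.90 and 2.80 (adjusted p = 0.00364). Apoa1, which high-density lipoprotein is built on, read 2.72, 2.84 and 2.89 (adjusted p = 0.000926). Apom, which carries sphingosine-1-phosphate, read 2.36, 2.20 and 2.01 (adjusted p = 0.000268). The arrays differed little for these. Apob, the scaffold of very-low-density lipoprotein, read 2.43, 1.69 and 0.51, and Mttp, which loads lipid onto it, 1.70, 1.63 and 0.46, so array 3 was low for both (adjusted p = 0.042 and 0.0178). Apoa2 rose at 1.48, 1.10 and 1.05. The member that fell was Fabp3, the fatty acid binding protein of muscle, at -0.65 ± 0.14. Apoh, another plasma apolipoprotein, stood at -0.03, and the scavenger receptor Scarb1 at 0.11. Leaving out array 1, 2 or 3 gave 6, 8 and 14 higher members with 1, 0 and 2 lower. Apoa1, Apoa4, Apoc2, Apoe, Apom and Fabp5 were stable.

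**Figure D3:**
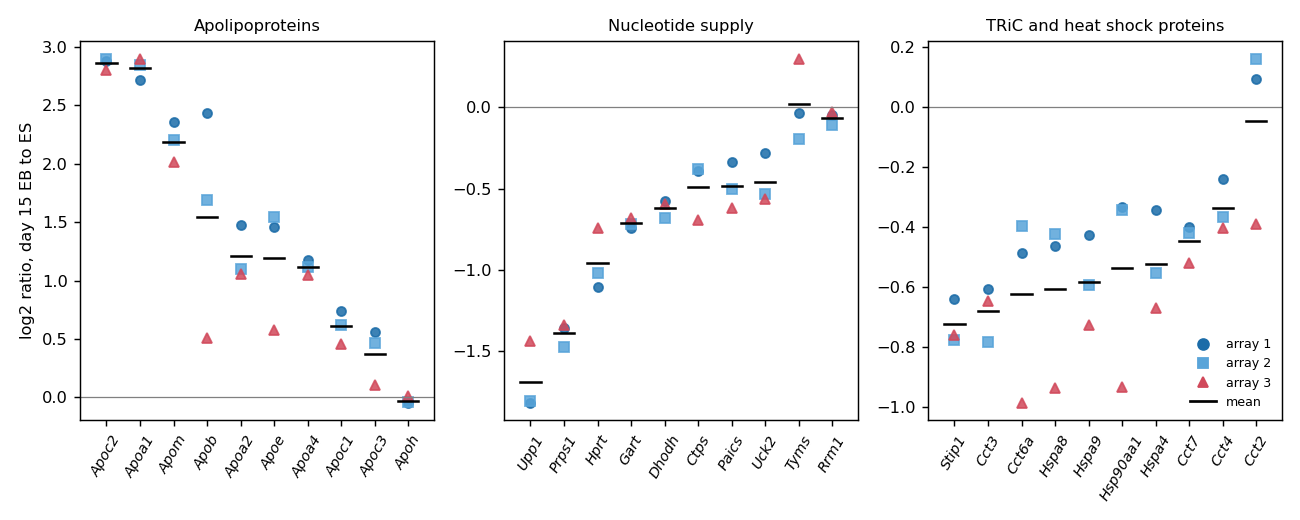
Log2 ratios of day 15 EB to ES on the 3 arrays (symbols) with their mean (black line) for members of 3 gene lists, chosen for display after their values were seen. Apolipoprotein genes run from 2.86 for Apoc2 to -0.03 for Apoh, nucleotide supply genes from -1.69 for Upp1 to 0.02 for Tyms, and chaperone genes from -0.72 for Stip1 to -0.05 for Cct2.

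A list of yolk sac genes, named for endocytic receptors and the absorptive surface, followed. Of 16 measured, 8 rose and 0 fell, with a median of 0.53. By array the median was 0.77, 0.84 and 0.07. The largest rises in the list were not those of the receptors. S100g, the vitamin D dependent calcium-binding protein calbindin, read 3.15, 3.06 and 2.64 (adjusted p = 0.000252). Spink1, an inhibitor of trypsin, read 2.64, 2.57 and 2.49 (adjusted p = 0.000464). Cited1, a transcriptional co-activator, read 1.74, 1.67 and 1.64 (adjusted p = 0.001). The homeobox gene Rhox5 rose at 0.61, 0.66 and 0.70, and the scaffold protein gene Pdzk1 at 0.71, 1.09 and 0.16. The receptors that define the absorptive surface did not pass. Amn, the membrane anchor of cubilin, stood at 0.55 ± 0.47 (0.66, 0.95 and 0.03, adjusted p = 0.0564), Cubn at 0.52 and the scavenging receptor Lrp2 at 0.24. Without array 3, 14 of the 16 were called higher, against 3 without array 1 or without array 2. After quantile normalization 4 rose, and 5 after scaling the arrays to equal spread. S100g, Spink1 and Cited1 were stable.

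The transcription factors that specify endoderm moved little. Of 22 measured, 1 rose, Sox17 (0.40, 0.62 and 0.22, adjusted p = 0.0398), and it was not called without array 1 or 2 or after either scaling. The median was 0.028. Gata6 stood at 0.31, Gata4 at 0.12, Foxa2 at 0.05 and Hnf4a, with a pair of probes, at -0.02.

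Clotting and complement genes, most of them products of liver and yolk sac, counted 8 higher and 1 lower of 33 (median 0.28). The complement-restraining surface proteins Cd55 (2.03, 1.81 and 1.00) and Cd59a (1.47, 1.24 and 0.74) were among the largest. Clu, a secreted chaperone that also restrains complement, read 1.84, 1.41 and 0.82, and Cfb, complement factor B, 1.31, 1.23 and 0.48. Proc, the zymogen of anticoagulant protein C, read 0.94, 1.64 and 0.86, and F2, prothrombin, 1.30, 1.59 and 0.27. Cd55, Cd59a, Cfb and Clu were stable, while Proc and F2 were not called without array 1 or without array 2. The list held 4 higher members without array 1 or 2 and 12 without array 3, with 0 lower in each case and after quantile normalization. Lysosomal genes counted 9 higher and 1 lower of 45 (median 0.20). The protease Ctsh rose most (2.08, 1.94 and 1.32), followed by Lamp2 (1.02, 0.83 and 0.41), Ctsa (1.01, 1.05 and 0.16) and the lipase Lipa (1.11, 0.71 and 0.24). Ctsh alone was stable, the list giving 1 higher member without array 1 or 2 and 16 without array 3.

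Matrix genes of connective tissue were also among the calls. Of 40 measured genes of interstitial matrix, 10 rose and 0 fell, with a median of 0.20. Postn, the matricellular protein periostin, read 2.62, 2.68 and 2.06 (2.46 ± 0.34, adjusted p = 3.69e-07, the smallest of the test). Col1a2, a chain of type I collagen, read 2.15, 2.26 and 1.07 (adjusted p = 0.000543). Col3a1, of type III collagen, read 1.17, 1.17 and 1.14 (adjusted p = 6.98e-06), but this is the mean of 3 probes at 3.15, 0.25 and 0.08. Col1a1 read 1.10, 1.32 and 0.77, its 3 probes standing at 2.03, 0.34 and 0.83. For both genes a single probe carries most of the ratio. Col5a1 (1.41, 1.63 and 0.36) and the collagen-binding protein Sparc (1.52, 1.26 and 0.49) rose too. Fibronectin, Fn1, stood at -0.08, and elastin, Eln, at 0.12. Postn, Col1a1, Col1a2, Col3a1 and Col5a1 were stable, the list giving 5 higher members without array 1 or 2, and 14 higher and 1 lower without array 3.

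Of 24 genes for folding and crosslinking collagen 7 rose and 1 fell (median 0.23). Serpinh1, the collagen chaperone Hsp47, read 1.21, 1.47 and 0.57, the lysyl hydroxylase Plod2 1.28, 1.32 and 0.43, and the lysyl oxidase relative Loxl2 1.74, 1.44 and 0.08. Pcolce2, an enhancer of procollagen processing, fell at -1.01, -1.12 and -0.53. None of them stayed called without array 1 or without array 2, where the list held 0 calls. In basement membrane 4 of 26 rose and 0 fell (median 0.053). The count was 1 without array 1 or 2, 7 without array 3 and 2 after either scaling. The largest was Tinagl1 (1.64, 1.46 and 1.19, adjusted p = 0.00065), the stable member, and the collagen chain Col4a1 rose at 0.57, 0.62 and 0.32. The laminin chains Lamb2 (0.43) and Lama2 (-0.39) did not pass. Among 41 genes for proteoglycans and their enzymes, 4 rose and 0 fell. Gpc3, a glypican that modulates growth factors, read 1.54, 1.71 and 1.14, and Lum, lumican, a small collagen-binding proteoglycan, 1.12, 0.88 and 1.35. Both were stable, and the count was 3 without array 1, 2 without array 2 and 10 without array 3. The related Dcn, decorin, stood at 0.76 and did not pass.

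Of 38 measured genes of mesenchyme and fibroblasts, 4 rose (10.5%) and 2 fell (5.26%), with a median of 0.15. On all 3 arrays 16 were positive and 6 negative. The shares of all features were 5.66% and 4.9%. Zeb1 (0.57, 0.82 and 0.38) and Snai2 (0.57, 0.51 and 0.16), regulators of the epithelial to mesenchymal transition, and the mesoderm factor Hand1 (0.81, 0.56 and 0.05) rose. Pdgfra, a receptor that marks mesenchyme, stood at 0.32 ± 0.26 (adjusted p = 0.23). The genes that fell were S100a4 (-2.16, -2.21 and -1.58) and Thy1 (-1.21, -0.94 and -0.48). Together with Ccl2 (-1.84, -2.03 and -0.94) and Tm4sf1 (-2.15, -1.73 and -0.50) they make up the markers chosen for fibroblasts or feeder cells, and all 4 fell. These markers are not separate from the lists, so they are no independent support. S100a4 and Thy1 are the members of this list that fell, and Tm4sf1 is in the endothelium list. S100a4, Ccl2 and Tm4sf1 are also among the 12 lowest genes. The collagen and matrix genes Col1a1 (1.07), Col3a1 (1.16) and Postn (2.46), chosen as markers of mesenchyme, rose. Whether a cell type was lost was not tested. The list of mesenchyme and fibroblast genes gave 0 calls without array 1 or without array 2. It gave 6 higher and 5 lower without array 3, and 1 higher and 2 lower after quantile normalization. Neither Ccl2 nor Tm4sf1 was called without array 1 or without array 2.

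Imprinted genes, which are expressed from 1 parental allele, counted 10 higher and 1 lower of 34 (median 0.20). Igf2, the fetal insulin-like growth factor, read 2.32, 1.95 and 2.31 (2.19 ± 0.21, adjusted p = 1.55e-05). Dlk1, a membrane ligand related to Delta, read 1.70, 1.68 and 1.54 (adjusted p = 8.35e-06). Mest read 1.81, 1.52 and 1.24 (adjusted p = 8.35e-06), and the noncoding RNA H19, the neighbour of Igf2, 1.13, 1.99 and 1.43 (adjusted p = 0.00364). Ndn (1.28, 1.49 and 0.37) and the cell cycle inhibitor Cdkn1c (0.68, 1.00 and 0.95) rose as well. Igf2, Dlk1, Mest, Ndn, Cdkn1c and Nnat were stable, and the count was 7 without array 1, 6 without array 2 and 12 without array 3. Of 22 genes of the IGF system, 7 rose and 1 fell. The higher members were 3 without array 1, 2 without array 2 and 8 without array 3. Besides Igf2 these included the adaptor Irs2 (1.63, 1.65 and 0.35) and the binding protein Igfbp4 (1.00, 1.04 and 0.47), whereas Htra1, a protease that cuts binding proteins, stood at -0.67 without passing.

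Simple epithelial keratins rose, and most other epithelial genes did not pass. Krt8 read 1.77, 2.01 and 1.58 (adjusted p = 5.91e-05), its partner Krt18 2.40, 2.39 and 1.10 (adjusted p = 0.000363), and Krt19 1.27, 1.22 and 1.11 (adjusted p = 0.000543). The tight junction genes Cldn6 (1.36, 1.20 and 0.62) and Cldn7 (0.96, 0.84 and 0.76) rose, and Lgals4, an intestinal lectin, fell (-1.20, -1.25 and -0.37). That made 5 higher and 1 lower of 37 (median 0.092). Epcam (-0.11 ± 0.18) and Cdh1, E-cadherin (-0.07), which ES cells also express, did not pass. The 3 keratins were the stable members, and 3 higher and 0 lower members were left without array 1 or array 2. After quantile normalization 4 rose and 0 fell.

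Heart muscle genes counted 8 higher and 0 lower of 34 (median 0.15). The atrial myosin light chains Myl4 (1.95, 2.05 and 0.78, adjusted p = 0.00486) and Myl7 (1.89, 1.71 and 0.49, adjusted p = 0.00508) led, followed by tropomyosin Tpm1 (1.04, 1.03 and 0.65) and cardiac actin Actc1 (1.00, 0.95 and 0.25). In all of them array 3 was lowest. The ventricular chain Myl2 stood at 0.92 and did not pass. The myosin heavy chains Myh6 (-0.08) and Myh7 (0.38), troponin Tnni3 (-0.01) and the cardiac factor Nkx2-5 (0.02 ± 0.03, adjusted p = 0.921) did not pass either. Tpm1 and Actc1 were stable, and the list counted 3 higher members without array 1, 2 without array 2 and 10 without array 3. In the list of smooth muscle and actin cytoskeleton 6 of 30 rose and 0 fell, including Acta2 (1.11, 1.08 and 0.19), which early heart muscle also expresses. That count was 3 without array 1, 1 without array 2 and 10 without array 3, and Acta2 was called in the last case.

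Markers of vessels and blood were mostly near 0. For endothelium, 7 of 42 rose and 1 fell (median 0.12), yet the defining genes did not pass. Cdh5, VE-cadherin, stood at -0.16 ± 0.19, Pecam1 at -0.04 ± 0.11, Kdr at 0.14 ± 0.20 and Tie1 at 0.24 ± 0.13. The members that rose most were Nrp1 and the endothelin receptor Ednrb (1.44, 1.28 and 0.09), both near 0 on array 3. The list gave 1 call without array 1, 0 without array 2, and 7 higher and 2 lower without array 3, and 3 rose after quantile normalization. Of 20 erythroid genes, the embryonic globin Hba-x rose (1.74, 1.75 and 0.38, adjusted p = 0.0106) and Tfrc fell. That was 5% each way, near the 5.66% and 4.9% of all features. Hbb-y (1.12), Hbb-bh1 (0.17 ± 0.74), Klf1 (-0.23) and Gata1 (0.03) did not pass, and neither call held without array 1 or without array 2. Macrophage genes counted 6 higher and 0 lower of 35. Pf4, a chemokine of platelets and fetal macrophages, read 1.56, 1.25 and 0.53 (adjusted p = 0.00353), and the Fc receptor Fcgr3 0.96, 0.79 and 0.62. Its signalling partner Fcer1g stood at 0.43 and the adaptor Tyrobp at 0.40 on average. Ptprc, the pan-leukocyte CD45, stood at 0.02 ± 0.10. Csf1r and Cd68 were not measured. Pf4 was the stable member, and 1 was called without array 1 or without array 2.

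Neural genes were called about as often as all features, and trophoblast genes were called higher more often. Of 49 neural genes 3 rose and 3 fell (6.12% each way, median 0.036). Of all features 5.66% rose and 4.9% fell. Stmn2, a microtubule regulator known from growing neurons, fell at -1.85, -1.88 and -1.64 (adjusted p = 5.91e-05), 1 of the 12 lowest genes. Ptn, the growth factor pleiotrophin, rose at 1.35, 1.31 and 0.24. Tubb3 (0.03), Gap43 (0.13) and Nefl (0.00) did not pass. Stmn2 and Nnat were stable, and 1 gene each way was called without array 1 or without array 2. Of 27 trophoblast genes 6 rose (22.2%) and 0 fell. They included Id2 (1.08, 1.25 and 0.83), which many tissues express, and the homeobox gene Rhox6 (0.58, 0.51 and 1.62), both stable, and 2 were called without array 1 or without array 2 and 3 after quantile normalization. The trophoblast-restricted Tpbpa stood at 0.24 ± 0.12 and Elf5 at 0.07 ± 0.53, neither passing, and Prl3d1 and Gcm1 were not measured.

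Patterning genes of the Hox clusters showed no call. In a list of 47 homeobox genes the 3 that rose were Irx3 (0.64, 0.93 and 0.24), Lhx1 (0.79, 0.62 and 0.30) and Meis2 (0.39, 0.22 and 0.40), and Gbx2, an ES cell and hindbrain gene, fell (-1.16, -0.996 and -0.57). At 6.38% higher and 2.13% lower, the list was near or below the 5.66% and 4.9% of all features. Without array 1 or array 2 the list gave 0 calls. Among 71 signalling genes 8 rose and 0 fell. The ligands among them were Tgfb2 (1.64, 1.61 and 0.41) and Bmp4 (0.80, 0.94 and 0.19), with the activin antagonist Fst (0.86, 1.17 and 0.76). The BMP-induced inhibitors of differentiation Id3 (1.42, 1.22 and 0.92) and Id2 rose, while Id1 stood at -0.05. Tgfb2, Id2 and Id3 were stable, and 3 members rose without array 1 or array 2, 11 without array 3.

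**Figure D4:**
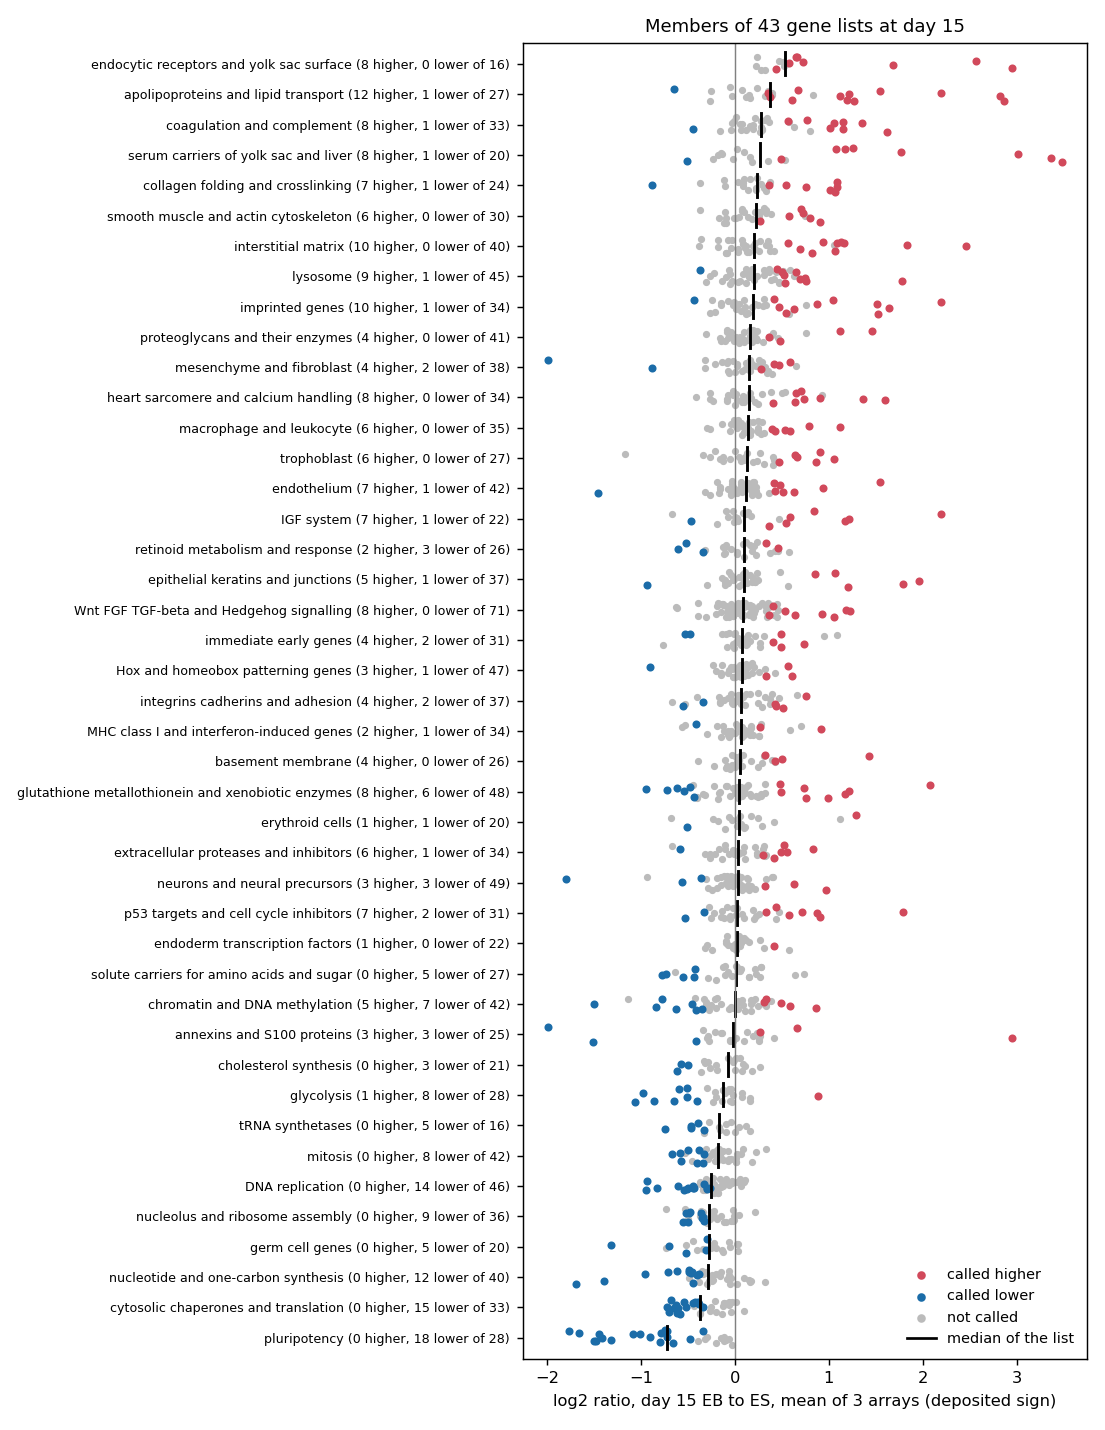
Each point is the mean log2 ratio of day 15 EB to ES of a measured member of a gene list, red where called higher, blue where called lower and grey where not called, and the black bar is the median of the list. Lists are ordered by that median, from 0.53 for the list of endocytic receptors and yolk sac surface to -0.73 for pluripotency.

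Of 28 measured pluripotency genes 18 fell and 0 rose, with a median of -0.73. Zfp42, also called Rex1, read -1.96, -1.95 and -1.38 (-1.76 ± 0.33, 95% interval -2.05 to -1.48, adjusted p = 1.55e-05). Dppa5a read -1.73, -1.94 and -1.30 (adjusted p = 2.12e-05), and Phc1, a Polycomb protein, -1.52, -1.58 and -1.41 (adjusted p = 1.55e-05). Fbxo15, a Pou5f1 target, read -1.73, -1.71 and -0.99, and Nr0b1, the nuclear receptor Dax1, -1.41, -1.64 and -1.28. The 3 arrays were all clearly negative for these genes. Nanog read -1.04, -0.96 and -0.18 (adjusted p = 0.0225) and Pou5f1 -0.48, -0.53 and -1.17 (adjusted p = 0.00778), so array 3 was the weakest for the first and the strongest for the second. Sox2 fell at -0.66 ± 0.17. Klf2 (-0.09), Tfcp2l1 (-0.03) and Esrrb (-0.32) did not pass. Without array 1, 9 members fell, without array 2, 7, and without array 3, 18. Dppa5a, Fbxo15, Mybl2, Nr0b1, Phc1, Pou5f1 and Zfp42 were stable, and Nanog, Tdgf1, Dppa3 and Gbx2 were not called without array 1 or without array 2.

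The promoter of Zfp42 is shown because it holds the octamer ATTTGCAT, the letters known to bind Pou5f1 and related factors. Of all promoters 1.74% held the octamer on either strand. Among 19 promoters of genes lower by at least 1, 1 held it (5.26%), that of Zfp42 (chr8:43307010-43307259, minus strand, match 186 bases before the start). Among the 63 of genes higher by at least 1, 1 held it too (1.59%), that of Col3a1 (chr1:45311288-45311537, plus strand, reverse complement, 148 bases before the start). The match is in capitals.
Zfp42: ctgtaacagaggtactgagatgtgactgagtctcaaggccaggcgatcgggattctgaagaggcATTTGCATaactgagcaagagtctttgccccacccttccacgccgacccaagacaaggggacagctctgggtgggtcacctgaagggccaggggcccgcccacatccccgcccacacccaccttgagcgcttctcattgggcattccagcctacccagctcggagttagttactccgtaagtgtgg
Col3a1: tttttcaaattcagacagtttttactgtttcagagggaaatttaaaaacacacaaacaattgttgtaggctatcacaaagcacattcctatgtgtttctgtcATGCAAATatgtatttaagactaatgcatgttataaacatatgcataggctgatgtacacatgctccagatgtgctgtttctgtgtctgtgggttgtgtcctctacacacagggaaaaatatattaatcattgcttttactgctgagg

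Other genes among the 12 lowest came from outside that circuit. Klk1, a kallikrein protease, read -2.14, -1.98 and -1.29. Pycard, the inflammasome adaptor ASC, read -1.68, -1.66 and -1.37. S100a6, a calcium-binding protein related to S100a4, read -1.63, -1.56 and -1.33. Each was negative on all 3 arrays (adjusted p = 0.00182, 0.000938 and 0.0158). Klk1 and Pycard were stable, while S100a6 was not called without array 1 or without array 2. Germ cell genes counted 5 lower and 0 higher of 20 (median -0.27). They included Dppa3, also an ES cell gene (-1.69, -1.71 and -0.57), and the meiosis regulator Stra8 (-0.64, -0.74 and -0.19). None was called without array 1 or without array 2, and 8 were without array 3.

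Of 46 measured DNA replication genes 14 fell and 0 rose (median -0.25). Msh6, of mismatch repair, read -0.64, -0.99 and -1.20. Rpa1, which coats single-stranded DNA, read -0.86, -0.95 and -0.998 (adjusted p = 0.000369), and Ccne1, the cyclin of S phase entry, -0.77, -1.08 and -0.64. The origin protein Orc1 (-0.61, -0.58 and -0.62), the helicase subunit Mcm3 (-0.48, -0.39 and -0.76) and the clamp loader Rfc5 (-0.51, -0.50 and -0.52) fell with array 3 as low as the others. Pcna stood at -0.26 and Mki67, the proliferation marker Ki-67, at 0.18, neither passing. The count was 8 without array 1, 6 without array 2 and 11 without array 3, and those 6 genes were stable. In mitosis 8 of 42 fell and 0 rose (median -0.18), with Hmmr (-0.46, -0.53 and -1.01), the motor Kif11 (-0.41, -0.94 and -0.41) and Top2a (-0.54, -0.51 and -0.66) stable and no others called without array 1 or without array 2. Among inhibitors of the cell cycle and targets of p53 7 of 31 rose and 2 fell, and 4 rose and 0 fell without array 1 or without array 2. After quantile normalization 7 rose and 0 fell, and after scaling to equal spread 7 and 1. Cdkn1a, the inhibitor p21, read 1.14, 1.00 and 0.58 (adjusted p = 0.000653), and Btg2 0.92, 0.68 and 0.54. The largest member of that list is not an inhibitor but cyclin D2, Ccnd2 (2.04, 2.13 and 1.19, adjusted p = 3.99e-05).

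Of 40 genes for nucleotide and one-carbon metabolism 12 fell and 0 rose (median -0.28). Upp1, which breaks down uridine, read -1.82, -1.81 and -1.44 (adjusted p = 5.91e-05). Prps1, which makes the ribose phosphate donor of all nucleotides, read -1.35, -1.47 and -1.34 (adjusted p = 8.35e-06). Hprt, of purine salvage, read -1.10, -1.02 and -0.74, and Gart, of purine synthesis, -0.74, -0.72 and -0.68. Array 3 lay near the other arrays for all 4. Tyms, of thymidylate synthesis, stood at 0.02. The count was 7 without array 1, 5 without array 2 and 10 without array 3, with Gart, Hprt, Paics, Prps1 and Upp1 stable. Of 28 glycolysis genes 8 fell and 1 rose (median -0.13), and 6, 5 and 5 fell without array 1, 2 or 3. By array the median was -0.066, -0.067 and -0.395, so array 3 was the lowest. Pgk1 fell at -0.40, -0.22 and -1.33 and was not called when any of the 3 arrays was left out. Pfkp, a phosphofructokinase, read -1.14, -1.17 and -0.87, the lactate dehydrogenase chain Ldhb -0.91, -1.17 and -0.86 and the pyruvate dehydrogenase kinase Pdk1 -0.94, -0.78 and -0.86. Eno3, the muscle enolase, was the one that rose (1.26, 1.11 and 0.27).

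Of 33 measured genes for cytosolic chaperones and translation 15 fell and 0 rose (median -0.37). Cct3, a subunit of the chaperonin TRiC, read -0.61, -0.78 and -0.65, and Stip1, which links the heat shock proteins Hsp70 and Hsp90, -0.64, -0.78 and -0.76. For Cct6a (-0.49, -0.40 and -0.99) and the elongation factor Eef2 (-0.38, -0.35 and -1.22) array 3 was the lowest by far. The count was 7 without array 1, 5 without array 2 and 9 without array 3. Nucleolar genes counted 9 lower and 0 higher of 36 (median -0.27), with Nop2 at -0.56 and nucleophosmin, Npm1, at -0.52, and 1, 2 and 8 lower members without array 1, 2 or 3. Of 16 tRNA synthetases 5 fell and 0 rose, led by Aars (-0.65, -0.69 and -0.89, adjusted p = 0.00163), and 3, 2 and 4 fell without array 1, 2 or 3. Chromatin genes split into 5 higher and 7 lower of 42. The Polycomb members Phc1, Mtf2 (-0.88, -0.78 and -0.84) and Eed (-0.58, -0.47 and -0.83) and the helicase Hells (-0.88, -0.83 and -0.61) were stable decreases, while the high mobility group gene Hmgb3 rose (0.82, 0.91 and 0.85). Without array 1 or without array 2 the list held 4 decreases and 0 increases, and Hmgb3 was not called. It held 9 increases and 7 decreases without array 3, 1 and 4 after quantile normalization, and 3 and 4 after scaling to equal spread. Dnmt3l, a cofactor of DNA methylation in germ and ES cells, stood at -1.14 without passing.

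Enzymes of detoxification split as well, 8 higher and 6 lower of 48. Gpx3, the secreted glutathione peroxidase, read 2.19, 2.17 and 1.85 (adjusted p = 0.000361), its pair of probes standing at 2.28 and 1.86. Gstm1 (1.50, 1.20 and 0.94) and the metallothioneins Mt2 (1.14, 1.20 and 0.64) and Mt1 (0.74, 0.79 and 0.73) rose. Ephx2, an epoxide hydrolase, fell (-1.42, -1.03 and -0.38). Mt1, Mt2 and Ephx2 were not called without array 1 or without array 2. The list counted 2 higher and 2 lower without array 1, 3 and 2 without array 2, 9 and 6 without array 3, and 5 and 5 after quantile normalization.

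Day 15 was then set against day 8, the question being which ratios differed between neighbouring days. In limma's contrast 19 features differed (0.178%), 14 higher at day 15 (0.131%) and 5 lower (0.0468%), and 985 (9.22%) had an unadjusted p under 0.05. Postn read -0.10, 0.02 and 0.12 on the day 8 arrays and 2.62, 2.68 and 2.06 at day 15, a difference of 2.44 (95% interval 2.09 to 2.79, adjusted p = 2.45e-05). Col1a2 went from -0.19, -0.66 and -0.84 to 2.15, 2.26 and 1.07, a difference of 2.39 (1.69 to 3.08, adjusted p = 0.00838). Igf2 went from 0.05, 0.09 and 0.85 to 2.32, 1.95 and 2.31, a difference of 1.86 (1.35 to 2.37, adjusted p = 0.00567). The arrays of both days did not overlap for any of these genes. Dlk1 differed by 1.47 (1.14 to 1.80, adjusted p = 0.00162), Col3a1 by 1.32 (adjusted p = 8.68e-05) and Mest by 1.32 (adjusted p = 0.00262). The other 8 higher genes, named after their values were seen, were Col1a1, Bmp4, the actin-sequestering Tmsb4x, Anxa6, the smooth muscle protein Tagln, Maged2, Igfbp4 and Nnat, with differences from 0.81 to 1.27. Of the 14, Postn, Col1a1, Col1a2, Col3a1, Igf2, Dlk1, Mest and Nnat are in the lists of interstitial matrix (40 measured) or imprinted genes (34), out of 10689 features tested. Both lists were written with earlier results of these data known, so this is a description only.

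The 5 lower genes were the pyrimidine enzyme Upp1 (-1.29, adjusted p = 0.0336), the synaptonemal complex gene Sycp3 (-1.29, adjusted p = 0.0325), Ldhb (-0.92, adjusted p = 0.0312), Prps1 (-0.79, adjusted p = 0.0425) and the exosome nuclease Dis3 (-0.60, adjusted p = 0.0413). Sycp3 stood above 0 at day 8 (0.76, 0.82 and 0.96) and below 0 at day 15 (-0.50, -0.66 and -0.17). The serum genes were not among the calls, and their day 8 arrays lay far apart. Afp read 0.01, 2.42 and 3.01 at day 8 and differed by 1.66 (95% interval 0.33 to 2.999, adjusted p = 0.412). Ttr read -1.33, 2.54 and 2.98. Array 1 of day 8 is of the first array set and arrays 2 and 3 are of the second. At day 4, array 3, also of the second set, was highest for Afp (1.17 against 0.22 and -0.48) and Ttr (1.86 against 0.38 and 0.06). At day 15 Afp was alike in both sets (3.35, 3.46 and 3.62). What the sets stand for was not tested. The count of 19 became 4 without day 15 array 1, 8 without array 2 and 126 without array 3, and 9 and 7 without day 8 array 1 or 2. It became 12 without day 21 array 2, whose spread enters the same fit. In the first array set alone, which holds 1 day 8 array, it was 159 (125 higher, 34 lower), the spread coming from the other days. The lower calls were the less stable part. All 5 were lost without day 15 array 1 or 2, day 8 array 1 or 2, or day 4 array 1, and 1 was left without day 21 array 1 (Ldhb), without day 21 array 2 (Sycp3) and with array number as a block (Sycp3). After either scaling Ldhb and Sycp3 stayed called.

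**Figure D5:**
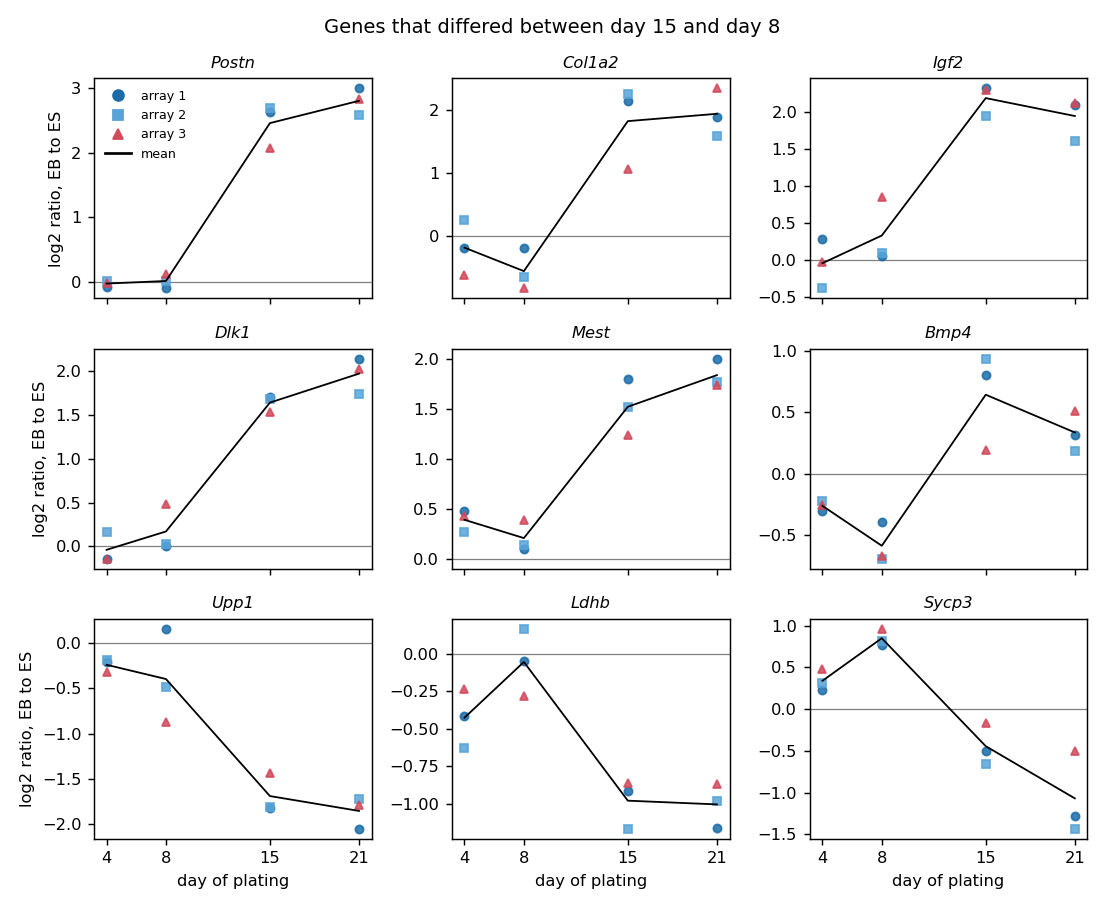
Log2 ratios of EB to ES on every array (symbols) and their daily mean (line) against the day of plating, 4, 8, 15 and 21, for 9 of the genes that differed between day 15 and day 8. Postn, Col1a2 and Igf2 lie between -0.62 and 0.28 at day 4 and at 1.07 or above on every array at day 15.

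Against day 21, 1 feature differed (0.00936%) in the main fit, which holds no pairing of arrays, and 674 (6.31%) had an unadjusted p under 0.05. The feature called was Npff, a neuropeptide precursor, at 0.39, 0.45 and 0.26 at day 15 and 1.16, 1.28 and 1.14 at day 21, a difference of 0.83 (95% interval 0.61 to 1.04, adjusted p = 0.0208). The call was lost when any single array of day 15 or day 21, day 4 array 1 or day 8 array 3 was left out, and after either scaling. With array number as a block the difference was the same and the adjusted p 0.0882, and 0 features were called. With the block and the arrays of both days alone the adjusted p was 0.18. Afp differed by 0.12 (-1.21 to 1.46) and Postn read 2.99, 2.58 and 2.83 at day 21. The medians of the lists stood at -0.74 at day 21 for pluripotency (-0.07 at day 4 and -0.41 at day 8) and at 0.37 for interstitial matrix (-0.04 and -0.06). For the list of endocytic receptors and yolk sac surface the median was 0.60 (0.16 and 0.69). These days share the ES control, so the medians are set side by side without a test.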

How the data were processed

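The authors deposited 1 value per feature and array, which per the labels is a normalized log ratio of the 2 channels, read here as a log2 ratio. For the base, normalization method, background correction, scanner and array design nothing was given in the sources used here. Intensities were not used here. Array medians at day 15 were 0.0068, 0.00365 and 0.00475, and 0 of the values of 11520 features were missing. Of the features, 10043 had 1 gene symbol in GEO's platform annotation, 29 several and 1448 none. By Entrez ID 10025 matched RefSeq's table of GRCm38.p6 and 0 symbols changed. Probes of a gene were averaged.

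All 12 arrays entered 1 limma 3.58.1 fit (lmFit and eBayes, R 4.3.3) with a mean per day, 8 residual and 4.35 prior degrees of freedom, two-sided tests and Benjamini-Hochberg adjustment over 10689 features, with no filter on low values. The number of arrays limits the precision. On simulated data for day 15 against ES with 200 of 10689 features shifted, 59% of shifts of 0.5 and 95% of shifts of 1 were recovered, 0 with the wrong sign, and 5.52% of calls were false. In the same run 15 unshifted features were called for day 21 against day 15. Whether these rates hold for the real arrays, where array 3 of day 15 stood apart, was not tested. The 43 gene lists and the comparison itself were chosen with earlier results of these data known, so no list is independent support. Named are the 12 largest called genes each way with 1 sign on 3 arrays, up to 6 members of each list, list members that did not pass, up to 6 genes each way per contrast, 6 called genes with array 3 apart, and cell type markers. The promoter motifs were chosen with the calls known, and the HNF1 half-site replaced a longer form of the motif tried first, whose result is not given here. Called list members beyond these (Sox2, Fabp3, Mybl2 and others given as stable) were named after their values were seen. Alternatives were fits of day 15 alone, with a replicate block, an array set term, array weights, other scalings, and without each array. Deviations of same-numbered arrays correlated at 0.237, 0.151 and 0.389 between days 15 and 21, with array 3 of both days in the second set. These arrays may therefore be paired, but the main fit holds no pairing. With array number as a block, 0 features differed between those days. Between days 8 and 15 the deviations correlated at 0.0079, -0.0414 and 0.0759, so no pairing was read there. The ES channel has no such numbers. Plots used matplotlib 3.10.9 (Python 3.11.15).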

Additional observations from a re-analysis of the deposited data

Results flagged for a closer look

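Some ratios against ES differed between day 15 and a neighbouring day by limma's contrast. Higher at day 15 than at day 8 were Postn by 2.44, Col1a2 by 2.39, Igf2 by 1.86, Dlk1 by 1.47, Col3a1 by 1.32, Mest by 1.32, Col1a1 by 1.27, Bmp4 by 1.23, Anxa6 by 1.15, Igfbp4 by 1.01 and Nnat by 0.81. Lower were Sycp3 at -1.29, Upp1 at -1.29, Ldhb at -0.92, Prps1 at -0.79 and Dis3 at -0.60. Npff was higher at day 21 than at day 15 by 0.83 in the fit without pairing, and was not called with array number as a block.

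A signal also appeared in features without a gene name, which were tested with all others. The 96 unnamed features at regular positions had a median of -1.36 on day 15 array 3, against -0.21 and -0.28 on arrays 1 and 2. Of these features 1 was called lower and 0 higher. What they hold was not tested.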

How the results depend on the processing

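The count of 1129 features called at day 15 was 259 in a fit of the day 15 arrays alone (117 higher, 142 lower), 1742 with the arrays of the first set only (1022 and 720) and 3251 with array weights (1763 and 1488). It ranged from 235 to 1554 when 1 array was left out. It was 776 after quantile normalization (387 and 389) and 914 after scaling to equal spread. The 19 features that differed from day 8 became 5 from the arrays of both days alone and 582 with array weights, with a range of 4 to 126 when 1 array was left out. In the first array set, a fit added after seeing the data, it was 159, and with array set as a term 21. The 1 feature that differed from day 21 became 0 from those days alone, with the replicate block (also in a fit of both days alone, added after seeing the data), in the first array set and after either scaling, and ranged from 0 to 1 when 1 array was left out. Called members of the gene lists, 311, became 115 in day 15 alone, 246 after quantile normalization and 272 after scaling to equal spread (added after seeing the data). Between same-numbered arrays of all days, correlations of deviations ran from -0.14 to 0.39, and 10 of 12 arrays correlated best with their own number, a hint from the data and not the design. The replicate block gave 1243 calls (625 higher, 618 lower) and 16 against day 8. Of 200 called genes named, 102 were lost in the fit of the day 15 arrays alone. Without day 15 array 1, 107 were lost, without array 2, 115, and without array 3, 12. After quantile normalization 29 were lost and after scaling to equal spread 18, and 0 reversed under any setting run. What causes these shifts was not tested.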

Other observations

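Several further gene lists are given here, beside the day 15 shares of all features, 5.66% higher and 4.9% lower. Of 34 extracellular proteases and their inhibitors 6 rose (17.6%) and 1 fell (2.94%), with a median of 0.037. The membrane-bound collagenase Mmp14 (0.92, 1.24 and 0.34) led, while Timp1, an inhibitor of such enzymes, fell (-0.85, -0.67 and -0.23). The list gave 0 calls without array 1 or without array 2, and 3 rose after quantile normalization. Of 37 genes of adhesion 4 rose (10.8%) and 2 fell (5.41%), and the integrin subunit Itgb5 (0.95, 0.92 and 0.39) was the stable member. Among 25 annexins and S100 proteins 3 rose and 3 fell (12% each way), and 1 and 2 did after quantile normalization. The calcium-binding protein S100g (3.15, 3.06 and 2.64) and S100a4 (-2.16, -2.21 and -1.58) lay at opposite ends of the list, and S100g was its stable member. Of 34 MHC class I and interferon-induced genes 2 rose (5.88%) and 1 fell (2.94%), with 0 calls without array 1 or without array 2 and 1 each way after either scaling.

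Among 27 solute carriers for amino acids and sugar 5 fell (18.5%) and 0 rose, although the list's median was 0.017. Slc25a5, the mitochondrial exchanger of ADP and ATP, read -0.74, -0.84 and -0.77 and was stable. Of 21 cholesterol synthesis genes 3 fell (14.3%) and 0 rose, with the isomerase Idi1 (-0.58, -0.70 and -0.57) stable. Of 26 retinoid genes 2 rose (7.69%) and 3 fell (11.5%). Lrat, which esterifies retinol, read -0.51, -0.35 and -0.94 and was stable. Of 31 immediate early genes 4 rose (12.9%) and 2 fell (6.45%), and 0 were called without array 1 or without array 2. Fos was 1.17 and 1.08 on arrays 1 and 2 and -0.03 on array 3. No explanation of these values was tested. Those lists were chosen with earlier results of these data known, and the genes named here were chosen after their values were seen.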
